A study of Mus musculus with 12 samples.

Results

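The cell cycle and mitosis genes described here are 44 genes that act when cells copy their DNA and divide, measured in whole mouse lung. Each gene was represented by 1 probe set that the platform table pairs with its symbol alone, the one with the highest mean log2 signal over the 12 arrays. By this rule 43 of the 44 were on the array, and Ccnb1 was dropped. They fall into 18 genes of G1/S and S phase and 25 of G2 and mitosis (26 listed with Ccnb1), out of 18193 genes on the array with such a probe set. A filter on low signal left 33 of the 43 for testing, 14 of S phase and 19 of G2/M.

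The study compared lungs of mice labelled as lacking PPTA with wild-type lungs, each taken 8 h after surgery, either CLP, the ligation and puncture of the cecum, or a sham procedure. The gene is now called Tac1 and encodes the precursor of substance P, and CLP is a model of abdominal sepsis in which gut bacteria leak from the punctured cecum. The 12 arrays form 4 groups of 3: knockout-labelled CLP, knockout-labelled sham, wild-type CLP and wild-type sham, all from mice 8 to 10 weeks old. Only the wild-type mice have a stated strain, Balb/c, so strain and genotype cannot be told apart. The labels name triplicates without saying that they came from separate animals, so every p-value measures the spread between these samples, which may be technical.

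Dividing cells express these genes in waves. E2F factors switch on the S phase genes, which license replication origins, load the MCM helicase and make nucleotides, and a later wave driven by B-MYB and FOXM1 raises the genes for mitotic entry, spindle assembly and chromosome separation. Most cells of the adult lung are at rest, and few divide at any time.

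The deposited values are probe set signals on a linear scale, and the mean of the signals between the lowest and highest 2% was 150.001 on each array. The array medians ran from 31.1 to 38.4. Tac1 (probe set 1416783_at) had signals of 442, 337 and 462 on the knockout-labelled CLP arrays, 379, 441 and 530.3 on the knockout-labelled sham arrays, 16.1, 3.95 and 12.4 on the wild-type CLP arrays and 5.25, 8.34 and 2.80 on the wild-type sham arrays. This signal goes against the labels, and the sources used here do not say which part of the gene was removed. Groups are therefore called by their labels, and each direction between genotypes below rests on those labels. A second Tac1 probe set was below the filter on low signal, at 1.26 to 16.0. Correlations between arrays of 1 group ran from 0.937 to 0.985, lowest in knockout-labelled sham. Among the 24574 probe sets tested, array 3 of knockout-labelled sham was at least 2-fold above both other arrays of its group for 646 and at least 2-fold below both for 758, and array 3 of knockout-labelled CLP for 202 and 471.

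The G2/M members as a group were higher in knockout-labelled CLP lungs than in the 3 other groups, and the S phase members as a group were not. Levels were compared as log2 of the signal plus 3.47, and each gene was set against its mean over the wild-type sham arrays. The median of the 25 G2/M members was 0.35, 0.56 and 1.18 on knockout-labelled CLP arrays 1 to 3, against 0.26, -0.11 and 0.22 on the knockout-labelled sham arrays. It was 0.01, -0.21 and -0.13 on the wild-type CLP arrays, against 0.04, -0.08 and 0.07 on the wild-type sham arrays. All 3 knockout-labelled CLP arrays thus lay above the other 9, with array 3 well above arrays 1 and 2. Group means were 0.70 ± 0.43 (knockout-labelled CLP), 0.12 ± 0.20 (knockout-labelled sham), -0.11 ± 0.11 (wild-type CLP) and 0.01 ± 0.08 (wild-type sham; SD, n = 3 each). Without array 3 the knockout-labelled CLP mean was 0.46.

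The median of the 18 S phase members stayed within 0.21 of the wild-type sham mean on each of the 12 arrays. It was 0.02, -0.21 and 0.10 on the knockout-labelled CLP arrays, 0.03, 0.04 and 0.02 on the knockout-labelled sham arrays, 0.00, 0.03 and -0.14 on the wild-type CLP arrays and 0.00, -0.01 and 0.02 on the wild-type sham arrays. The 3 knockout-labelled CLP arrays lay on both sides of the knockout-labelled sham arrays. In whole tissue, fewer cells of a type and less RNA per cell cannot be told apart.

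**Figure D1:**
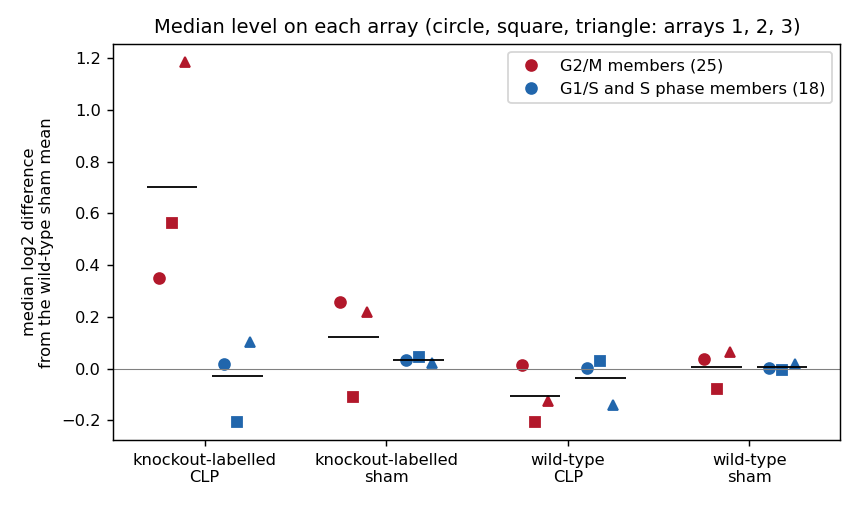
Median log2 difference from the wild-type sham mean (y axis) over the 25 G2/M members and the 18 G1/S and S phase members on each array, by group; points are arrays and bars are group means. The G2/M medians of the knockout-labelled CLP arrays are 0.35, 0.56 and 1.18, above the other 9 arrays, while the S phase medians run from -0.21 to 0.10 over all 12.

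Across single genes by representative probe set, the highest of the 12 signals fell on array 3 of knockout-labelled CLP for 24 of the 25 G2/M members, with Tpx2 the exception. Other Tpx2 probe sets, below the filter, did not agree. The highest signal of 1428104_at was on that array, at 48.0, and that of 1447518_at on wild-type sham array 2, at 46.1. Array 3 of knockout-labelled CLP was highest for 4 of the 18 S phase members, and for 11.1% of all 45037 probe sets. It held for 25 of 47 other G2/M genes and 6 of 34 other S phase genes. Of 8 genes of granulocyte precursors, which divide in the bone marrow, 6 were highest there.

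After CLP, part of the G2/M members rose in knockout-labelled lungs. Over all 43 members without a filter, 12 had 3 CLP arrays above all 3 sham arrays (9 of G2/M, 3 of S phase) and 2 had them all below (both of S phase). Over all probe sets, 9.33% were higher without overlap and 17.4% lower. The log2 difference was above 0 for 23 of 25 G2/M members, with a median of 0.53, and for 6 of 18 S phase members, with a median of -0.11. The median over all 45037 probe sets was -0.10. Without knockout-labelled CLP array 3 the G2/M median was 0.31, with 21 of 25 above 0, the S phase median was -0.19, and 2 G2/M members were called in place of the 5 given below. By limma's adjusted p with no filter, 7 of the 43 rose (4 of G2/M, 3 of S phase) and 1 of S phase fell, against 5.08% and 9.33% of all probe sets. With the filter, 5 of the 19 tested G2/M members rose and none fell, and 3 of the 14 tested S phase members rose and 1 fell. Among all probe sets tested, 10.4% rose and 18.8% fell. With each array centred on its median, the probe sets called by adjusted p turned to 5314 rises and 2236 falls, against 2553 and 4619 without centring, and the median of the tested S phase members moved to 0.08, against -0.14, while that of the tested G2/M members was 0.78, against 0.56.

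**Figure D2:**
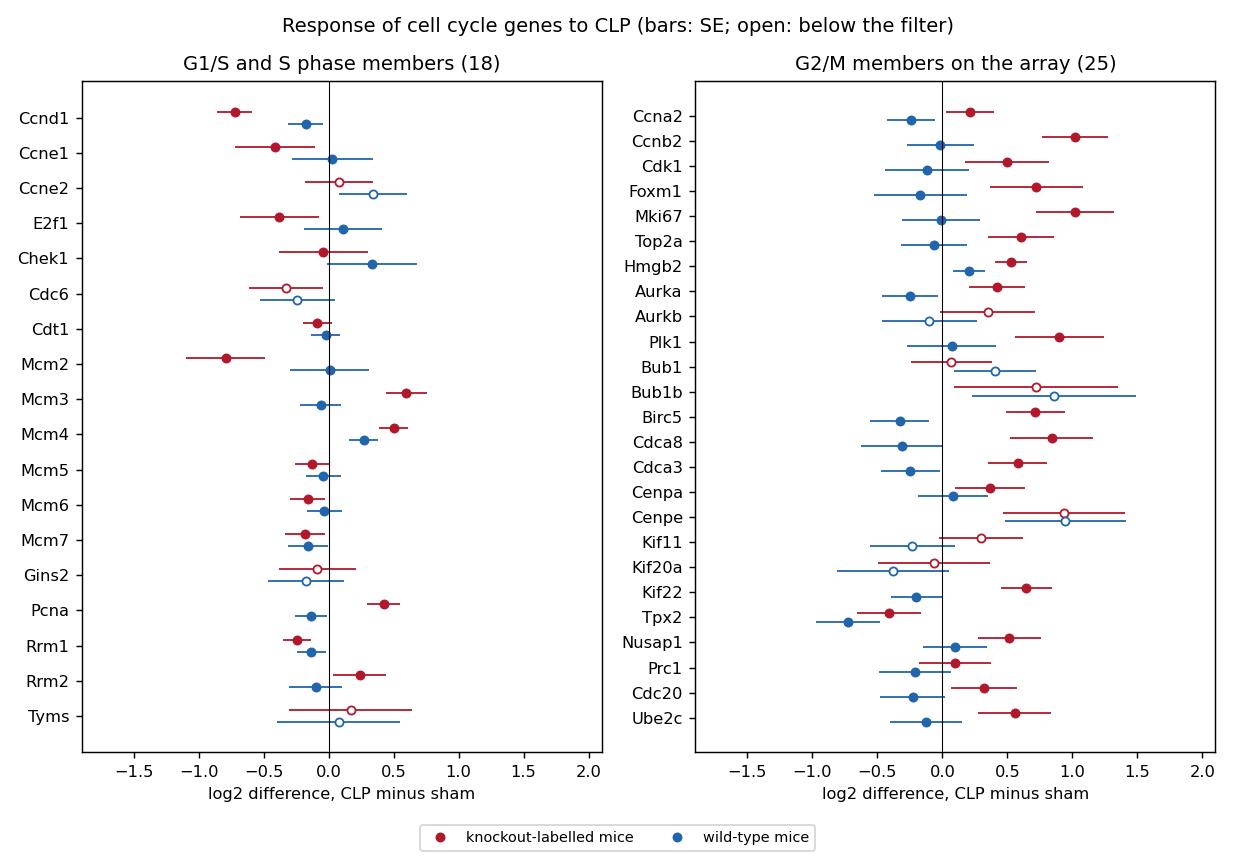
Log2 difference between CLP and sham lungs (x axis) for the 18 G1/S and S phase members and the 25 G2/M members, in knockout-labelled and wild-type mice; bars are standard errors and open points are genes below the filter on low signal. The knockout-labelled points lie right of 0 for 23 of 25 G2/M members, and the S phase points scatter on both sides.

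Mki67 encodes the Ki-67 protein, a coat of mitotic chromosomes used to mark proliferating cells. Its signals were 125, 235 and 294 on the knockout-labelled CLP arrays, against 118, 85.4 and 96.5 on the knockout-labelled sham arrays. In wild-type mice they were 114, 56.0 and 85.3 after CLP, against 98.5, 72.2 and 78.9 after sham. CLP array 1 lay just above the highest sham array, and arrays 2 and 3 were far above it. The rise in knockout-labelled lungs was 2.03-fold, 1.02 ± 0.30 on the log2 scale (standard error from limma, 3 arrays a group), with an adjusted p of 0.023. The call was lost without knockout-labelled CLP array 2 or 3 or knockout-labelled sham array 2.

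Ccnb2, the cyclin B2 partner of Cdk1, gave 75.9, 103 and 138 in knockout-labelled CLP lungs, against 54.1, 49.7 and 43.4 in knockout-labelled sham lungs. Wild-type lungs gave 66.2, 40.8 and 46.0 after CLP, against 44.7, 41.6 and 69.2 after sham. The knockout-labelled groups did not overlap, and the wild-type groups did. The difference in knockout-labelled mice was 1.02 ± 0.26 (adjusted p = 0.011), and it stayed past the threshold with each array left out in turn.

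Birc5 encodes survivin, a subunit of the chromosomal passenger complex that corrects kinetochore attachment. Signals of 65.1, 81.4 and 117 in knockout-labelled CLP lungs stood against 66.2, 46.1 and 42.3 in knockout-labelled sham lungs. CLP array 1 lay just below the highest sham array, so the groups overlapped, and the difference was 0.72 ± 0.23 (adjusted p = 0.033). In wild-type lungs the order was turned: 37.9, 42.4 and 35.8 after CLP lay below 50.8, 43.3 and 54.9 after sham with no overlap, a difference of -0.33 ± 0.23 that did not pass the test (adjusted p = 0.81).

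Kif22, a kinesin that pushes chromosome arms towards the spindle equator, had 129, 144 and 212 in knockout-labelled CLP lungs, against 108, 87.2 and 106 in knockout-labelled sham lungs. The difference was 0.65 ± 0.20 (adjusted p = 0.026), and the groups did not overlap. In wild-type lungs the signals were 88.9, 72.7 and 90.2 after CLP, against 111, 79.6 and 101 after sham, and overlapped. The call of Kif22 was lost without knockout-labelled CLP array 3 or sham array 2, and that of Birc5 without either of these, CLP array 2 or sham array 3, or with no filter.

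Hmgb2, a chromatin protein abundant in dividing cells, gave 315, 320.4 and 402 in knockout-labelled CLP lungs, against 233, 253 and 226 in knockout-labelled sham lungs, a difference of 0.53 ± 0.12 (adjusted p = 0.007). Its wild-type signals, 401, 348 and 389.8 after CLP and 308, 321 and 359 after sham, lay in the range of the knockout-labelled CLP arrays or near it. The 2 other Hmgb2 probe sets did not carry the rise, with differences of 0.21 and -0.23 that did not pass the test.

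**Figure D3:**
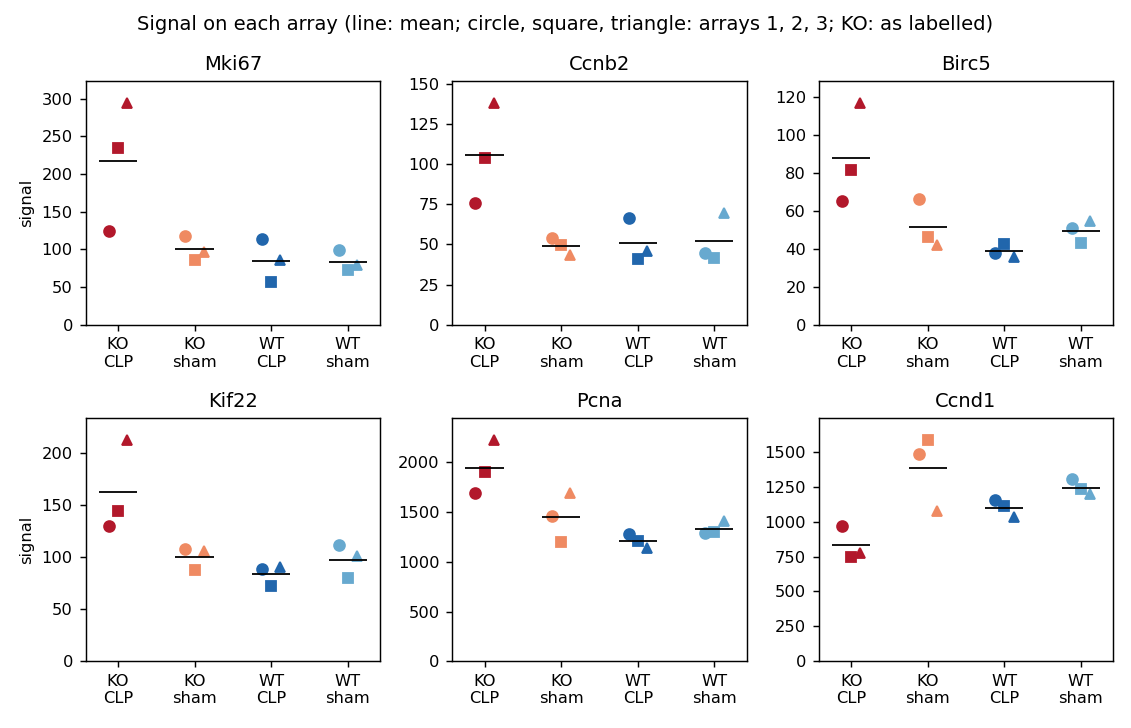
Signal on each array (y axis, linear) of 6 members called for CLP in knockout-labelled mice; points are arrays and bars are group means. For Mki67, Ccnb2, Birc5 and Kif22 array 3 of knockout-labelled CLP is the highest of the 12, while for Ccnd1 the knockout-labelled CLP arrays are the lowest.

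The 14 tested G2/M members that did not pass in this comparison had differences from -0.41 (Tpx2, which targets Aurora A to the spindle) to 0.90 (Plk1, the Polo-like kinase of mitotic entry). Top2a, which untangles DNA before chromosomes separate, had 117, 135 and 208 in knockout-labelled CLP lungs, against 126, 94.3 and 76.1 in knockout-labelled sham lungs. Its difference of 0.60 ± 0.25 had an adjusted p of 0.092, and sham array 1 overlapped CLP array 1. Plk1 at 0.90 ± 0.34 (adjusted p = 0.064), Cdca8, or borealin of the passenger complex, at 0.84 ± 0.32 (adjusted p = 0.064) and Cdca3, a trigger of mitotic entry, at 0.58 ± 0.22 (adjusted p = 0.07) missed the threshold although their CLP arrays lay above all sham arrays. The same held for Aurka, the Aurora A kinase of spindle poles, at 0.42 ± 0.22 (adjusted p = 0.16). Foxm1, the factor that drives the G2/M wave, differed by 0.72 ± 0.36 (adjusted p = 0.15) with overlapping arrays. Plk1 and Aurka passed the filter on low signal only through the 3 knockout-labelled CLP arrays, and Cdca8 through those and 1 wild-type CLP array. The remaining 8 were Ccna2, Cdk1, Cenpa, Nusap1, Prc1, Cdc20, Ube2c and Tpx2, and Tpx2, which passed the filter only through the 3 wild-type sham arrays, was the only tested G2/M member below 0.

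Of the S phase members, 3 rose in knockout-labelled lungs after CLP and cyclin D1 fell. Pcna, the sliding clamp of DNA polymerase, had 1692, 1899.9 and 2224 in knockout-labelled CLP lungs, against 1456, 1203 and 1691 in knockout-labelled sham lungs. The difference was 0.42 ± 0.13 (adjusted p = 0.024), but the lowest CLP array and the highest sham array were nearly equal, and the call was lost without CLP array 2 or 3 or sham array 1 or 2. In wild-type lungs Pcna was lower on all CLP arrays, at 1283, 1212 and 1141, against 1289.5, 1301 and 1408 after sham, without passing the test (-0.14 ± 0.13, adjusted p = 0.88).

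Mcm3 and Mcm4 encode 2 of the 6 subunits of the MCM helicase, which opens DNA at replication origins. Mcm3 gave 154, 162 and 209.8 in knockout-labelled CLP lungs, against 134, 113 and 96.4 in knockout-labelled sham lungs, a difference of 0.60 ± 0.16 (adjusted p = 0.013). Mcm4 gave 317, 359 and 349.6 in knockout-labelled CLP lungs, against 232, 230.2 and 260.2 in knockout-labelled sham lungs, a difference of 0.50 ± 0.11 (adjusted p = 0.0069). Neither gene's arrays overlapped between the 2 groups. Other Mcm3 probe sets differed by 0.78 (adjusted p = 0.011) for 1426652_at, 1.25 (adjusted p = 0.002) for 1426653_at and 0.15 (adjusted p = 0.71) for 1449705_x_at.

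The 4 other helicase subunits did not rise. Mcm5, Mcm6 and Mcm7 differed by -0.13, -0.16 and -0.18 between knockout-labelled CLP and sham lungs, each with overlapping arrays. Mcm2 had 86.1, 60.4 and 76.8 in knockout-labelled CLP lungs, against 142, 182 and 85.0 in knockout-labelled sham lungs, and its difference of -0.79 ± 0.30 missed the threshold (adjusted p = 0.068). A second Mcm2 probe set (1448777_at) differed by -0.15 (adjusted p = 0.51).

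**Figure D4:**
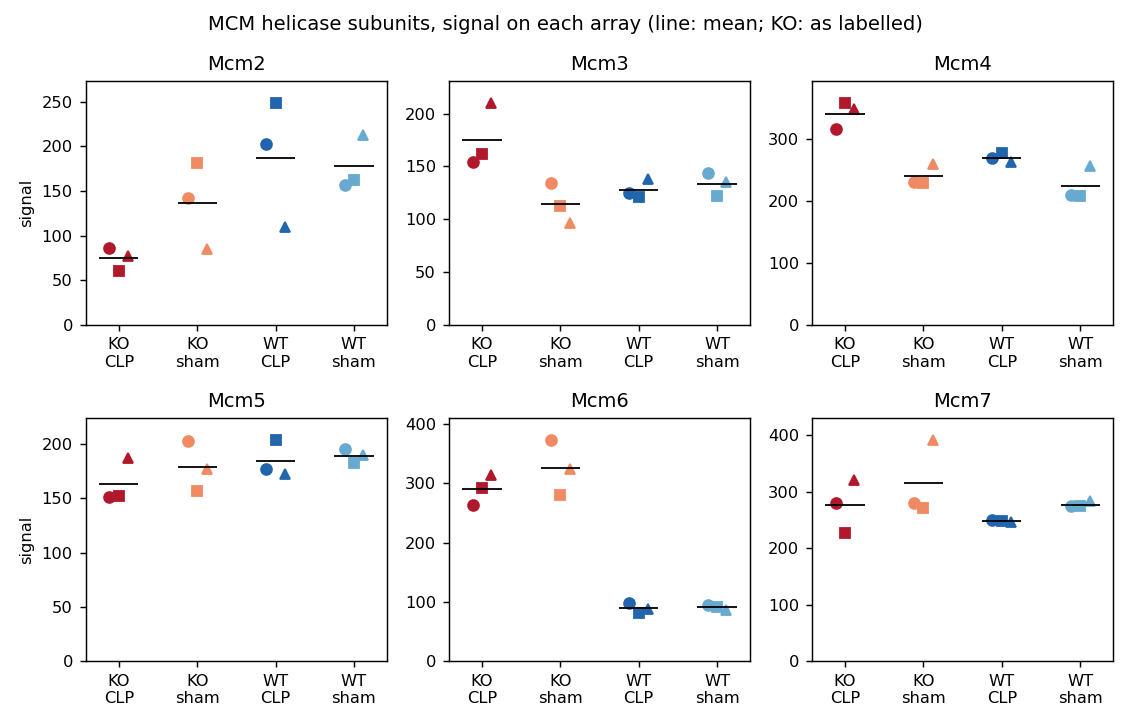
Signal on each array (y axis, linear) of the 6 MCM helicase subunits; points are arrays and bars are group means. Mcm3 and Mcm4 are higher in knockout-labelled CLP lungs than in knockout-labelled sham lungs, Mcm2 has its lowest mean in knockout-labelled CLP lungs, and Mcm6 separates the genotypes after either surgery.

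Ccnd1, cyclin D1, couples growth signals to the exit from G1. Its signals were 967, 744 and 776 in knockout-labelled CLP lungs, against 1482, 1584 and 1077 in knockout-labelled sham lungs. Wild-type lungs gave 1154, 1109 and 1032 after CLP, against 1301, 1231 and 1196 after sham. In both genotypes the CLP arrays lay below all sham arrays, but the fall passed the test in knockout-labelled lungs alone, at -0.72 ± 0.14 (adjusted p = 0.0026), against -0.18 ± 0.14 in wild-type lungs (adjusted p = 0.85). The difference between the 2 responses was -0.55 ± 0.20 and did not pass (adjusted p = 0.12). A second Ccnd1 probe set (1417419_at) fell by 1.07 in knockout-labelled lungs (adjusted p = 0.0035), and the third (1448698_at) differed by -0.50 (adjusted p = 0.14).

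The other tested S phase members did not pass. They were Ccne1 (cyclin E1), E2f1 (the activating E2F factor), Chek1 (the replication checkpoint kinase), Cdt1 (an origin licensing factor) and Rrm1 and Rrm2 (the ribonucleotide reductase subunits). Their differences in knockout-labelled lungs ran from -0.41 (Ccne1) to 0.24 (Rrm2). Rrm1 differed by -0.24 ± 0.11 (adjusted p = 0.11), with its CLP arrays below all sham arrays. A second Rrm1 probe set (1448127_at) differed by -0.02 (adjusted p = 0.95), with overlapping arrays. Ccne1 and E2f1 passed the filter on only 3 arrays, the fewest it allows.

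In wild-type lungs, CLP did not move the cell cycle genes detectably. By limma's adjusted p, 0 of 33 tested members passed, against 0.948% of all probe sets tested. At an unadjusted p under 0.05 there were 2, Mcm4 at 0.27 ± 0.11 (adjusted p = 0.52) and Tpx2 at -0.73 ± 0.25 (adjusted p = 0.32), against 8.48% of all probe sets. The log2 difference was above 0 for 7 of 25 G2/M members, with a median of -0.12, and for 7 of 18 S phase members, with a median of -0.04. The median over all 45037 probe sets was -0.06. With each array centred on its median, the median of the tested S phase members turned to 0.07, against -0.04. Without a filter, 2 members (both of S phase) were higher and 8 lower without overlap between the arrays, where 6.68% and 12.2% of all probe sets were. The 5 G2/M members that were lower without overlap were Ccna2, Aurka, Birc5, Tpx2 and Prc1, and none of them passed the test.

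The responses of the genotypes were compared directly, as the CLP effect in knockout-labelled lungs minus that in wild-type lungs. By limma, 0 of 33 members passed, against 4.05% of all probe sets tested, and 10 had an unadjusted p under 0.05 (9 above 0), against 22.6% of all probe sets. The smallest adjusted p-values were those of Birc5 (1.05 ± 0.32, adjusted p = 0.083), Pcna (0.56 ± 0.18, adjusted p = 0.09) and Kif22 (0.85 ± 0.28, adjusted p = 0.099). Mki67 at 1.04 ± 0.42 (adjusted p = 0.17) and Ccnb2 at 1.04 ± 0.36 (adjusted p = 0.12) had differences near that of Birc5 with larger errors. Of all 25 G2/M members 22 were above 0, with a median of 0.55, and of the 18 S phase members 6 were, with a median of -0.09. Centring each array turned the probe sets that passed by adjusted p to 697 with a positive and 352 with a negative difference, against 416 and 579 without centring, and the median of the tested S phase members to 0.02, against -0.10. A different response of the genotypes was thus not shown for any single member by its representative probe set. With knockout-labelled CLP array 1 left out 7 members passed (Ccnd1, Pcna, Ccnb2, Mki67, Birc5, Cdca8 and Kif22), and with knockout-labelled sham array 3 left out 2 did. The share of all probe sets that passed in these fits is not given here, so these counts cannot be set against a background. Array 1 was the knockout-labelled CLP array with the lowest G2/M median, 0.35.

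Most G2/M members were higher in septic knockout-labelled lungs than in septic wild-type lungs. Of 23 tested G2/M genes outside the member list, 3 were called higher and 0 lower, against 12.6% and 16.9% of all probe sets. Without a filter, 20 members were higher in knockout-labelled CLP than in wild-type CLP lungs without overlap (16 of G2/M, 4 of S phase) and 3 were lower (all of S phase), where 14.9% and 18.2% of all probe sets were. The log2 difference was above 0 for 22 of 25 G2/M members, with a median of 0.72, and the S phase median was 0.02. Without knockout-labelled CLP array 3 these medians were 0.53 and -0.02. By limma's adjusted p with no filter, 12 were higher (10 of G2/M, 2 of S phase) and 1 of S phase was lower, against 6.39% and 8.35% of all probe sets. With the filter, 11 of 19 tested G2/M members were higher and none was lower, and 3 of 14 S phase members were higher and 2 lower. Over all probe sets tested, 12.6% were higher and 16.9% lower. Without knockout-labelled CLP array 3, 7 of the 16 calls remained: Mcm2, Mcm6, Pcna, Mki67, Birc5, Kif22 and Ube2c.

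The largest of these G2/M differences was that of Mki67, at 1.29 ± 0.30 (2.45-fold, adjusted p = 0.007). Birc5 differed by 1.08 ± 0.23 (adjusted p = 0.0043), Kif22 by 0.90 ± 0.20 (adjusted p = 0.0051) and Ccnb2 by 0.99 ± 0.26 (adjusted p = 0.012), from the signals given above. For these 4 genes each knockout-labelled CLP array lay above all wild-type CLP arrays.

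Genes of the anaphase-promoting complex pathway, which marks mitotic proteins for destruction, were among them. Ube2c, its ubiquitin-conjugating enzyme, had 81.5, 91.4 and 147 in knockout-labelled CLP lungs, against 49.8, 39.9 and 45.7 in wild-type CLP lungs (1.14 ± 0.28, adjusted p = 0.0092). Cdc20, its activator, differed by 0.88 ± 0.25 (adjusted p = 0.02). Neither overlapped between these groups. Ube2c had signals of 76.9, 44.9 and 94.9 in knockout-labelled sham lungs, which overlapped those of knockout-labelled CLP lungs. A second Cdc20 probe set (1416664_at) differed by 0.43 (adjusted p = 0.15) and did not pass.

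Ccna2, the S and G2 cyclin, had 55.5, 47.5 and 75.7 in knockout-labelled CLP lungs, against 34.6, 33.0 and 34.7 in wild-type CLP lungs (0.72 ± 0.19, adjusted p = 0.012). After sham surgery it had 53.1, 49.1 and 47.8 in knockout-labelled lungs, above 40.7, 38.6 and 43.6 in wild-type lungs. A second Ccna2 probe set (1417911_at) differed by 0.86 between septic lungs (adjusted p = 0.096) and did not pass. Cdca3 differed by 0.82 ± 0.22 (adjusted p = 0.016). Top2a had 117, 135 and 208 in knockout-labelled CLP lungs, against 84.3, 83.7 and 85.6 in wild-type CLP lungs (0.79 ± 0.25, adjusted p = 0.033). The wild-type CLP arrays of Ccna2 and Top2a were tightly grouped, and their knockout-labelled CLP arrays were spread, with array 3 highest.

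Aurka and Cdca8 had low signals, so the pseudocount pulls their differences towards 0. Aurka passed the filter only through the 3 knockout-labelled CLP arrays, the group in which it was high, and Cdca8 through these and 1 wild-type CLP array, so that their places among the 11 are not independent of the filter. Aurka gave 35.1, 41.2 and 53.2 in knockout-labelled CLP lungs, against 23.9, 25.2 and 19.1 in wild-type CLP lungs (0.82 ± 0.22, adjusted p = 0.014). Cdca8 gave 37.8, 61.9 and 91.7 in knockout-labelled CLP lungs, against 35.1, 24.4 and 16.2 in wild-type CLP lungs (1.20 ± 0.32, adjusted p = 0.014). No arrays overlapped for either gene. With no filter on any probe set the adjusted p was 0.031 for Aurka and 0.025 for Cdca8. The 8 tested G2/M members that did not pass were Cdk1, Foxm1, Hmgb2, Plk1, Cenpa, Tpx2, Nusap1 and Prc1, from -0.14 (Hmgb2) to 0.87 (Plk1).

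Among S phase members in septic lungs, Pcna was higher in knockout-labelled mice by 0.67 ± 0.13 (adjusted p = 0.0021) and Mcm4 by 0.33 ± 0.11 (adjusted p = 0.044). Ccnd1 was lower, with a difference of -0.41 ± 0.14 (adjusted p = 0.04). Mcm2 was lower too: 86.1, 60.4 and 76.8 in knockout-labelled CLP lungs lay below 203, 248 and 109 in wild-type CLP lungs (-1.22 ± 0.30, adjusted p = 0.01). The wild-type CLP arrays of Mcm2 were themselves widely spread, and the second Mcm2 probe set differed by -0.33 (adjusted p = 0.14) and did not pass. Among the 12 fits that left out 1 array, the call of Mcm4 was lost in 9 and that of Ccnd1 in 8, and both were lost with no filter. The representative Rrm1 probe set differed by 0.08 (adjusted p = 0.62) between septic lungs. The second (1448127_at) was higher in knockout-labelled lungs by 0.80 (adjusted p = 0.0034), and differed by 0.50 (adjusted p = 0.078) after sham.

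Mcm6 separated the genotypes after either surgery. Its signals were 263, 292 and 314 in knockout-labelled CLP lungs and 373, 279 and 324 in knockout-labelled sham lungs, against 97.9, 80.9 and 88.4 in wild-type CLP lungs and 95.3, 91.6 and 86.3 in wild-type sham lungs. All 6 knockout-labelled arrays lay above all 6 wild-type arrays, by 3.17-fold after CLP (1.66 ± 0.13, adjusted p = 6.2e-06) and 3.46-fold after sham (1.79 ± 0.13, adjusted p = 4e-06). CLP itself did not move it detectably, with differences of -0.16 ± 0.13 in knockout-labelled and -0.03 ± 0.13 in wild-type lungs. A second Mcm6 probe set (1438852_x_at) was also higher in knockout-labelled lungs, by 1.15 (adjusted p = 0.00043) after CLP and 0.86 (adjusted p = 0.0067) after sham.

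After sham surgery 2 of 33 tested members passed the test between the genotypes, Mcm6 upwards and Hmgb2 downwards, against 4.48% of all probe sets upwards and 3.86% downwards. Without overlap between arrays, 4 of the 33 were higher in knockout-labelled sham lungs and 2 lower, against 3758 and 3507 of the 24574 probe sets tested. Among the higher ones were Ccna2 (0.27 ± 0.19, adjusted p = 0.43) and Cdc20 (0.33 ± 0.25, adjusted p = 0.48), both also higher in septic knockout-labelled lungs. Their other tested probe sets did not carry this sham difference. They differed by 0.0027 (adjusted p = 0.998) for Ccna2 (1417911_at) and 0.11 (adjusted p = 0.81) for Cdc20 (1416664_at). Hmgb2 had 233, 253 and 226 in knockout-labelled sham lungs, against 308, 321 and 359 in wild-type sham lungs (-0.47 ± 0.12, adjusted p = 0.033). A second Hmgb2 probe set (1437313_x_at) was lower in knockout-labelled lungs after either surgery, with differences of -0.91 (adjusted p = 0.005) after sham and -1.12 (adjusted p = 0.00052) after CLP. The call of the representative Hmgb2 probe set was lost in 7 of the 12 fits that left out 1 array. The median differences over all members on the array were 0.12 for G2/M and 0.09 for S phase, against 0.00 over all probe sets. With each array centred on its median, that of the tested G2/M members turned to -0.02, against 0.05, and the probe sets called by adjusted p to 878 higher and 1365 lower, against 1101 and 949 without centring.

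The promoters of the G2/M members share sequence features that the choice of members did not use. Promoters of 250 bases before to 50 bases after the start were taken from RefSeq on build GRCm38.p6 and matched to 35 of the 44 members, 21 of G2/M and 14 of S phase. Ccnd1, Tpx2, Ccna2, Aurkb, Gins2, Ccne2, Mcm4, Kif20a and Foxm1 are not shown. The cell cycle homology region (CHR), read as TTTGAA on either strand, binds the complexes that silence mitotic genes in resting cells and switch them on in G2. It was found in 16 of 21 G2/M promoters (76.2%), 1 of 14 S phase promoters (7.14%) and 17.9% of the 32851 promoters in the table. In 15 of the 16 it lay between 40 bases before and 45 bases after the start, a range not counted over all promoters.

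The CCAAT box, read as CCAAT on either strand and bound by NF-Y, was found in 19 of 21 G2/M promoters (90.5%), 8 of 14 S phase promoters (57.1%) and 37.4% of all promoters. Both motifs together were in 16 of 21 G2/M promoters, 1 of 14 S phase promoters (Mcm2) and 6.95% of all promoters. E2F motifs, read as TTTCCCGC, TTTCGCGC, TTTGCCGC or TTTGGCGC on either strand, were in 1 of 21 G2/M promoters (Cdk1), 6 of 14 S phase promoters (42.9%) and 2.26% of all promoters. A match describes letters and not a bound site, and promoters without a match may still be bound. Of the 11 G2/M members higher in knockout-labelled septic lungs, Mki67, Birc5 and Kif22 illustrate the range: Birc5 had no CHR in this window, Kif22 had copies 215 and 17 bases before the start, and Mki67 had copies 116 and 98 bases before the start.

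Shown are 150 bases, from 120 before to 30 after the start and 5′ to 3′ on the gene's strand, for members with a called difference and for Cdk1, the kinase that drives mitotic entry; capitals mark CHR and CCAAT letters on either strand. They are Ccnb2 (chr9:70421525-70421674, minus strand), Cdc20 (chr4:118437314-118437463, minus strand), Ube2c (chr2:164769809-164769958, plus strand), Cdk1 (chr10:69352883-69353032, minus strand), Kif22 (chr7:127042391-127042540, minus strand) and Mki67 (chr7:135716350-135716499, minus strand). Mcm6 (chr1:128359676-128359825, minus strand) is shown for contrast as the S phase member with the largest genotype difference, and its capitals mark 3 E2F matches, of which the first 2 overlap.
Ccnb2: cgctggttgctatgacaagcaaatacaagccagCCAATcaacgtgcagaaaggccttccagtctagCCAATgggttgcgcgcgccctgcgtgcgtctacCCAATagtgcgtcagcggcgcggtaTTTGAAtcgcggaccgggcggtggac
Cdc20: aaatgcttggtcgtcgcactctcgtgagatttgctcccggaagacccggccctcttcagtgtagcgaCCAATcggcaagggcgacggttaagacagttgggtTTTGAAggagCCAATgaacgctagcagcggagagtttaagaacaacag
Ube2c: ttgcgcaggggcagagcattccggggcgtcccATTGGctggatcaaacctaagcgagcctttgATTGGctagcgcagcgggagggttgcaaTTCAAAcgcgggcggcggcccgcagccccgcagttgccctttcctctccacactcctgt
Cdk1: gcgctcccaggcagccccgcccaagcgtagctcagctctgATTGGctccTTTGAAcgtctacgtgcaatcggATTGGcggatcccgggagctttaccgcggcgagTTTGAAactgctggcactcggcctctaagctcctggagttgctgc
Kif22: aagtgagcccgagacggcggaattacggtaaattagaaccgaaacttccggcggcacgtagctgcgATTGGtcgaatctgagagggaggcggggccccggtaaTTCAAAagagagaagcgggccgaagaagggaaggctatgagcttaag
Mki67: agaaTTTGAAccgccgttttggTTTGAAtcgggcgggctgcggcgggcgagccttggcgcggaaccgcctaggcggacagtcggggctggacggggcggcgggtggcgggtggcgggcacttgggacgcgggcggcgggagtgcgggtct
Mcm6: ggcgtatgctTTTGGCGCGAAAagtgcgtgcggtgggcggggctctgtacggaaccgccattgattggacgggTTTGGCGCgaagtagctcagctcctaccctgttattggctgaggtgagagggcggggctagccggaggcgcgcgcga
In Ccnb2 the CHR lies just after the start with 3 CCAAT boxes upstream, and in Cdc20 a CCAAT box lies on each side of it. Ube2c and Kif22 carry the CHR on the opposite strand, the Mki67 window has no CCAAT box, and the Mcm6 window has no CHR. The Mcm6 window does hold 2 CCAAT boxes on the opposite strand, which are left in lower case.

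The summed transcripts of granulocyte precursors rose after CLP in both genotypes. The summed signal of 8 granulocyte precursor genes ran from 18410 to 22691 in knockout-labelled CLP lungs, against 1908 to 6641 in knockout-labelled sham lungs. It ran from 4512 to 5813 in wild-type CLP lungs, against 1802 to 2185 in wild-type sham lungs. In wild-type lungs 2 of the 4 tested genes of the list rose, where 0.948% of all probe sets passed in either direction and no G2/M member passed. In knockout-labelled lungs all 4 rose, against 10.4% of all probe sets tested, and none of the 8 was listed at 0. Of these 4, Chil3 (1.54) is also in the list of alveolar macrophage genes below, so both sums include it. The late granule genes Ngp, with 6657, 8046 and 8699.5 in knockout-labelled CLP lungs, against 261, 405 and 336 in knockout-labelled sham lungs, and Camp were high on all 3 knockout-labelled CLP arrays.

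The primary granule genes, which mark promyelocytes that still divide, were below the filter on low signal and were highest on the same array as the G2/M genes. Mpo, myeloperoxidase, had 24.2, 62.7 and 418 on knockout-labelled CLP arrays 1 to 3, against 17.6, 27.7 and 6.57 in knockout-labelled sham lungs, with wild-type signals of 9.34 to 24.0. Elane, neutrophil elastase, had 12.98, 22.3 and 122 on knockout-labelled CLP arrays 1 to 3, against 4.91, 4.14 and 0.784 in knockout-labelled sham lungs. Prtn3 and Ctsg were likewise highest on array 3, at 165 and 126. The same array was highest for 24 of 25 G2/M members, and the part of these cells in the G2/M result was not tested.

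**Figure D5:**
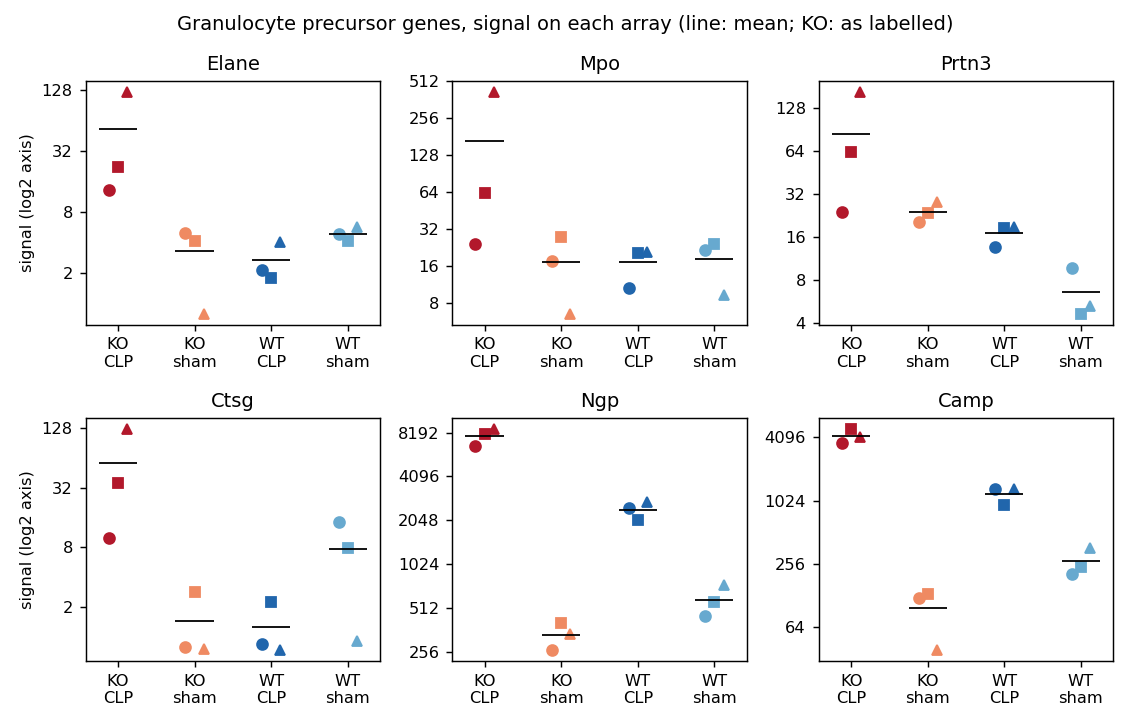
Signal on each array (y axis, log2 axis) of 6 granulocyte precursor genes; points are arrays and bars are group means. Elane, Mpo, Prtn3 and Ctsg are highest on array 3 of knockout-labelled CLP, at 122, 418, 165 and 126, while Ngp and Camp are high on all 3.

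Of 9 mature neutrophil genes, 7 rose after CLP in knockout-labelled lungs, where 10.4% of all probe sets tested rose. In wild-type lungs 7 rose, where 0.948% of all probe sets passed in either direction. The summed signal of the 9 genes ran from 33090 to 36935 in knockout-labelled CLP lungs, against 10281 to 26890 in knockout-labelled sham lungs. It ran from 33559 to 36577.5 in wild-type CLP lungs, against 8619 to 15085 in wild-type sham lungs. Alveolar macrophage genes (8) summed to 9617 to 10441 in knockout-labelled CLP lungs, against 3611 to 10549 in knockout-labelled sham lungs, 4011 to 4138 in wild-type CLP lungs and 3910.3 to 4204 in wild-type sham lungs. The highest knockout-labelled sham sum was that of array 3, on which the G2/M median was 0.22, within the range of its group. Monocyte genes (6) summed to 5257 to 7883 in knockout-labelled CLP lungs, against 3182 to 5050.5 in knockout-labelled sham lungs, 2610.0 to 2872 in wild-type CLP lungs and 2098 to 2175 in wild-type sham lungs. Their part in the result was not tested.

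Some markers of lung structural cells also moved in knockout-labelled lungs after CLP, where 10.4% of all probe sets tested rose and 18.8% fell. Of 7 ciliated cell genes 4 fell, with a median difference of -0.94, and their summed signal ran from 1953 to 3135 in knockout-labelled CLP lungs, against 3118 to 4839 in knockout-labelled sham lungs. Of 7 fibroblast genes 4 fell and 1 rose (median -0.37), with sums of 7994 to 10164 in knockout-labelled CLP lungs, against 10363 to 11680.5 in knockout-labelled sham lungs. Of 8 endothelial genes 3 fell (median -0.25), of 7 alveolar type 1 genes 2 fell, of 5 club cell genes 1 fell and of 7 alveolar type 2 genes 1 fell. The counts of club cell and alveolar type 2 genes were near the share of all probe sets. In wild-type lungs no gene of these lists passed by limma's adjusted p, with 0 at an unadjusted p under 0.05. Of all probe sets tested, 0.948% and 8.48% did. The alveolar type 2 genes summed to 37378 to 45794 over the 12 arrays. The part of these cells in the G2/M result was not tested.

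Cell cycle genes outside the member list were counted against the same background, 10.4% of all probe sets up and 18.8% down in knockout-labelled lungs after CLP. There, 4 of 23 other G2/M genes rose and none fell: Cks2 (0.77, adjusted p = 0.003) and Cks1b (0.47, adjusted p = 0.019), which bind cyclin-dependent kinases, the histone variant H2az1 (0.55, adjusted p = 0.0031) and the lamin Lmnb1 (1.03, adjusted p = 0.0053). The median difference of these 23 was 0.04, with 13 above 0 and 10 below, against 0.56 for the tested G2/M members. Between septic lungs of the 2 genotypes their median was 0.18, against 0.82 for the tested G2/M members. Of 26 other S phase genes, 3 rose and 4 fell in knockout-labelled lungs after CLP, shares near those of all probe sets. Timeless, of the replication fork, rose by 1.81 (adjusted p = 0.0084) with 162, 300.0 and 617 in knockout-labelled CLP lungs, against 89.2, 46.5 and 151 in knockout-labelled sham lungs, and its partner Tipin by 0.45 (adjusted p = 0.032). Orc6, of the origin recognition complex, rose by 0.43 (adjusted p = 0.031). The polymerase delta genes Pold1 (-0.87, adjusted p = 0.0022) and Pold2 (-0.50, adjusted p = 0.023) and the DNA ligase Lig1 (-0.99, adjusted p = 0.012) fell, as did Gins4 of the GINS helicase complex (-0.64, adjusted p = 0.043). In wild-type lungs, 0 genes of either list passed by limma's adjusted p, and 4 had an unadjusted p under 0.05. Of all probe sets tested, 0.948% and 8.48% did so there. The smallest adjusted p among the genes of these lists was that of Cks2, 0.064.

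Of 12 tested drivers of G1, 2 rose and 1 fell in knockout-labelled lungs after CLP, against 10.4% and 18.8% of all probe sets. Ccnd2, cyclin D2, rose by 0.33 (adjusted p = 0.0047) and Myc by 1.60 (adjusted p = 0.00089), with Myc at 111, 207 and 217 in knockout-labelled CLP lungs, against 69.2, 55.1 and 41.5 in knockout-labelled sham lungs. Cdk4, the kinase partner of D cyclins, fell (difference -0.39, adjusted p = 0.022).

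Of 32 tested genes that hold the cycle back, 6 rose and 9 fell in knockout-labelled lungs after CLP, against 10.4% and 18.8% of all probe sets, the rises with the smallest p including the inhibitor Cdkn2d (1.67, adjusted p = 5.1e-05) and the stress gene Gadd45g (1.72, adjusted p = 0.00011). The related inhibitor Cdkn2c fell (difference -1.01, adjusted p = 0.0021). In wild-type lungs 1 of 32 passed, Gadd45a, which rose by 1.05 (adjusted p = 0.036) and by 1.12 in knockout-labelled lungs (adjusted p = 0.0022). In septic lungs, 2 of the 32 were higher in knockout-labelled mice and 9 lower, against 12.6% and 16.9% of all probe sets. Wee1, the kinase that restrains Cdk1, was lower (difference -1.65, adjusted p = 7.9e-06), as was Cdkn1b, the p27 inhibitor (difference -1.48, adjusted p = 1.6e-05). Both were already lower after sham surgery, with differences of -1.34 for Wee1 (adjusted p = 6.2e-05) and -0.88 for Cdkn1b (adjusted p = 0.0014).

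The 10 members below the filter were not tested. They were Ccne2, Cdc6, Gins2 and Tyms of S phase, and Aurkb, Bub1, Bub1b, Cenpe, Kif11 and Kif20a of G2/M. Array 3 of knockout-labelled CLP was the highest of 12 for all 6 of these G2/M genes. Aurkb, the kinase of the passenger complex, had 13.1, 22.7 and 35.3 in knockout-labelled CLP lungs, against 13.7, 13.8 and 24.1 in knockout-labelled sham lungs. Cenpe, a kinetochore motor, had 16.8, 15.8 and 47.4 in knockout-labelled CLP lungs, against 8.61, 10.99 and 12.8 in knockout-labelled sham lungs, and was the one untested G2/M member whose CLP arrays lay above all sham arrays there. Cdc6, which loads the helicase, ran from 15.5 to 30.3 over the 12 arrays and Tyms, thymidylate synthase, from 2.44 to 26.6.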

How the data were processed

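Whole-lung RNA of 12 samples was hybridised to 12 Affymetrix arrays. The deposited intensity values are probe set signals on a linear scale, with GCOS, MAS5 and Affymetrix Expression Console named per the submitters' processing notes. The number of arrays limits the precision. Of 45101 probe sets, 64 controls were left out. Platform annotation gave 34945 of the others 1 symbol, 932 several and 9160 none, and no gene was named from a probe set with several. Signals plus 3.47 (10% of the median array median) were taken to log2, with no further normalisation. Probe sets above their array's median on at least 3 arrays (24574) were fitted with limma 3.58.1 in R 4.3.3, with 1 mean per group, an intensity trend and Benjamini-Hochberg adjustment over all 24574 at 0.05, tested on simulated data. Tables were made with pandas 2.3.3 and numpy 2.4.6. A difference on the log2(signal + 3.47) scale understates changes of low genes. Array values are given for up to 8 called members per list and comparison, ordered by p, and for Mki67, Top2a, Pcna and Ccnd1, with up to 5 called genes of each other list. Alternatives covered normalisation, pseudocount, filter, moderation, array weights, pairing, probe set choice and each array left out. Members and lists were chosen with earlier results of these data known.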

Additional observations from a re-analysis of the deposited data

Results flagged for a closer look

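Among the members' probe sets and the other gene lists, 12 probe sets had a CLP response that differed between knockout-labelled and wild-type lungs by limma's test of the difference itself, given here as the knockout-labelled effect less the wild-type one (log2). Of all probe sets tested, 4.05% passed this test, and of the members' 53 tested probe sets 1 did. A single gene of a list is thus not read as a result about its cell type. Of 32 tested genes that restrain the cell cycle, Cdkn2d differed by 1.04 (adjusted p = 0.027) and Cdkn2c by -1.16 (adjusted p = 0.032). A second Mcm3 probe set, 1426653_at, differed by 1.30 (adjusted p = 0.044), while the representative one did not pass. Of 4 tested granulocyte precursor genes, Ngp, Camp and Ltf differed by 2.48, 3.40 and 2.03. Mmp9, 1 of 9 tested genes of mature neutrophils, differed by -0.91, and Xbp1, 1 of 5 of plasma cells, by 0.58. Of 7 genes each, 1 of alveolar type 2 cells (Abca3, -0.58), 1 of alveolar type 1 cells (Rtkn2, -1.04) and 2 of ciliated cells (Tekt4, -1.45, and Ccdc39, -1.61) passed. The other 6 alveolar type 2 genes were above 0.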

How the results depend on the processing

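For knockout-labelled CLP against sham, the 9 called members became 15 with arrays centred on their medians, 2 with only those groups fitted, 2 when a change of at least 2-fold was asked for, and 5 to 11 with 1 array left out. Against wild-type CLP, the 16 became 10 with probe sets of suffix _x_at, _s_at or _a_at (probes shared with other transcripts) left out, 6 at 2-fold and 7 to 18 with 1 array left out. After sham, the 2 became 1 with only those groups fitted, 1 without those suffixes, 1 at 2-fold and 1 to 2 with 1 array left out. For wild-type CLP against sham, array weights gave 1 (Tpx2) in place of 0, and leaving out 1 array gave 0 to 0. The difference between responses gave 6 with array weights, 1 with all probe sets of a gene averaged and 0 to 7 with 1 array left out. Leaving out knockout-labelled CLP array 1 and sham array 3 together, chosen after seeing the data like the 2-fold requirement, gave 15 for knockout-labelled CLP against sham and 7 for the difference. CLP array 3 and sham array 3 left out gave 6 and 2. Hmgb2 changed sign: -0.23 for knockout-labelled CLP against sham without those suffixes, and -0.064 (mean of probe sets) and -0.30 (without those suffixes) for the difference between responses. The S phase level in knockout-labelled sham lungs, 0.03, was 0.0082 with quantile normalisation, -0.037 with centring, -0.034 with the mean of probe sets and 0.011 without those suffixes, and that in wild-type CLP lungs, -0.04, was 0.070 with centring. The cause was not tested. Over 36 pairs of member and comparison, the settings gave 985 values. The pairs were the called ones plus, for the difference between responses, the 9 members called for knockout-labelled CLP against sham. With the settings described above none of these 9 passed for that difference, so a kept value there is a gene that stayed uncalled. Of the 985 values, 856 kept direction and side of the threshold, 104 lost the call, 22 gained one and 3 changed sign. Same-numbered samples correlated at -0.10 to 0.12 in their deviations and differently numbered ones at -0.14 to 0.15, so no pairing by number was visible. The labels do not say whether the numbers pair the samples. With the number as a replicate block, 9 members were called for knockout-labelled CLP against sham, 15 against wild-type CLP, 2 after sham and 0 in the other comparisons. Signals near the array median limit what can be read from the 10 untested members.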
